A study of Mus musculus with 8 samples.

Results

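The genes described here encode the 2 layers of extracellular matrix of pancreatic islets: the basement membrane and the interstitial matrix. They were listed by name, as the chains of type IV collagen and laminin, the nidogens, the heparan sulfate proteoglycans and collagens of basement membranes, the fibrillar and type VI collagens, the adhesive and matricellular glycoproteins, the small leucine-rich proteoglycans, and a set of matrix proteases and their inhibitors. All 45 were found on the array, 22 of the basement membrane and 23 of the interstitial matrix, among 22911 genes that could be named. Isolated islets of control (Fbln5-floxed) mice were compared with those of βFbln5KO mice, in which Fbln5, encoding the secreted matricellular protein Fibulin-5, is deleted from β-cells. Both groups were male littermates aged 11 weeks and both carried Fbln5 alleles with exons 1a and 1b between loxP sites. Only the βFbln5KO mice also carried Cre, from a bacterial artificial chromosome with the mouse insulin 1 promoter (Ins1-Cre), so that the endothelial, mesenchymal and other non-β-cells of the islets keep the gene. RNA was taken right after isolation from 4 lots of 150 islets per group, without further treatment, and the labels do not say how many mice gave each lot. Each lot was hybridised to 1 one-colour array, and the 8 arrays lay on 1 slide, and each genotype filled its own row of the slide, so an effect of that row and one of genotype cannot be told apart.

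Basement membranes are thin sheets in which a laminin network, anchored to cells, and a type IV collagen network are held together by nidogens and by heparan sulfate proteoglycans such as perlecan. In mouse islets they surround the capillaries, and β-cells, which make little basement membrane of their own, lie against the sheet laid down by the endothelium. The interstitial matrix, of fibrillar collagens with their proteoglycans and adhesive glycoproteins, is made mainly by fibroblasts, stellate cells and pericytes and lies around the islet capsule and vessels.

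A level here is the log2 of a probe's signal after subtracting, on the same scale, the array's 75th percentile, and a difference is the mean level of βFbln5KO islets minus that of control islets. Each gene was read by its brightest probe, so levels of different genes cannot be set against each other. Between 56.6% and 58.8% of spots were well above background on control arrays and between 52.6% and 56.6% on βFbln5KO arrays. Fbln5 itself read -1.70, -1.32, -2.05 and -1.83 on control arrays 1 to 4 and -2.74, -2.40, -2.38 and -1.37 on βFbln5KO arrays 1 to 4, so that βFbln5KO replicate 4 lay within the control range. All 8 β-cell markers were well above background on every array. Markers of endothelial cells (11 of 12), of mesenchymal cells (7 of 10) and of exocrine acinar cells (10 of 11) were also well above background on all 8 arrays, so the values below come from islets with their vessels, mesenchyme and some attached acinar tissue. In such bulk RNA fewer cells of a type and less RNA per cell cannot be told apart.

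Most matrix genes were present and differed little between the genotypes. Signals well above background were found on every array for 32 of the 45 genes (14 of the basement membrane, 18 interstitial), on some arrays for 8 and on none for 5. At an unadjusted p of 0.05 in limma, 3 genes were higher in βFbln5KO islets (Col18a1, and Col4a3 and Mmp9, both well above background on no array) and 5 were lower (Lama2, Agrn, Sparc, Bgn, and Mmp14, which was well above background on no array). Among all named genes 16.8% were called higher and 2.68% lower, and 3462 of the 3845 called higher were well above background on no array. Restricted to genes well above background on all 8 arrays, 1 of 32 matrix genes was higher and 4 were lower, where 1.01% and 3.08% of all such genes were called. No matrix gene passed an adjusted p of 0.05 (Benjamini-Hochberg over all 56605 probes, limma), which 0.0131% of named genes did. The median difference of the 45 genes was -0.09, and that of all named genes was 0.02. Of the 32 genes well above background on every array, 25 had a negative difference and 7 a positive one, with a median of -0.08, beside 7311 negative and 6339 positive among all 13650 such genes. In 3 of the 45 genes (6.67%), all well above background on every array, the groups did not overlap. This held for 17.8% of all named genes, which include those at background. The share among genes well above background on every array was not computed, so these shares are not like for like. Leaving out βFbln5KO replicate 4 moved the median of the 45 genes to -0.17 and brought 2 genes, Agrn and Col4a3, past an adjusted p of 0.05 (limma), with 3755 named genes past it in that fit. Without that array, whose Fbln5 level lay among the controls, the 5 detected calls all held (Col18a1 1.002, Lama2 -0.50, Bgn -0.29, Agrn -0.23 and Sparc -0.19, with adjusted p from 0.026 to 0.13). The number of genes called lower fell to 3 without βFbln5KO replicate 3, where 2.34% of all named genes were called lower. That called higher fell to 1 when control replicate 1 or 2 or βFbln5KO replicate 1, 2 or 3 was left out. In those fits 15.9% to 16.4% of all named genes were called higher. The number called higher also fell to 1 under normexp background correction and under a common floor on dim signals, beside 0.742% and 0.869% of all named genes.

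**Figure D1:**
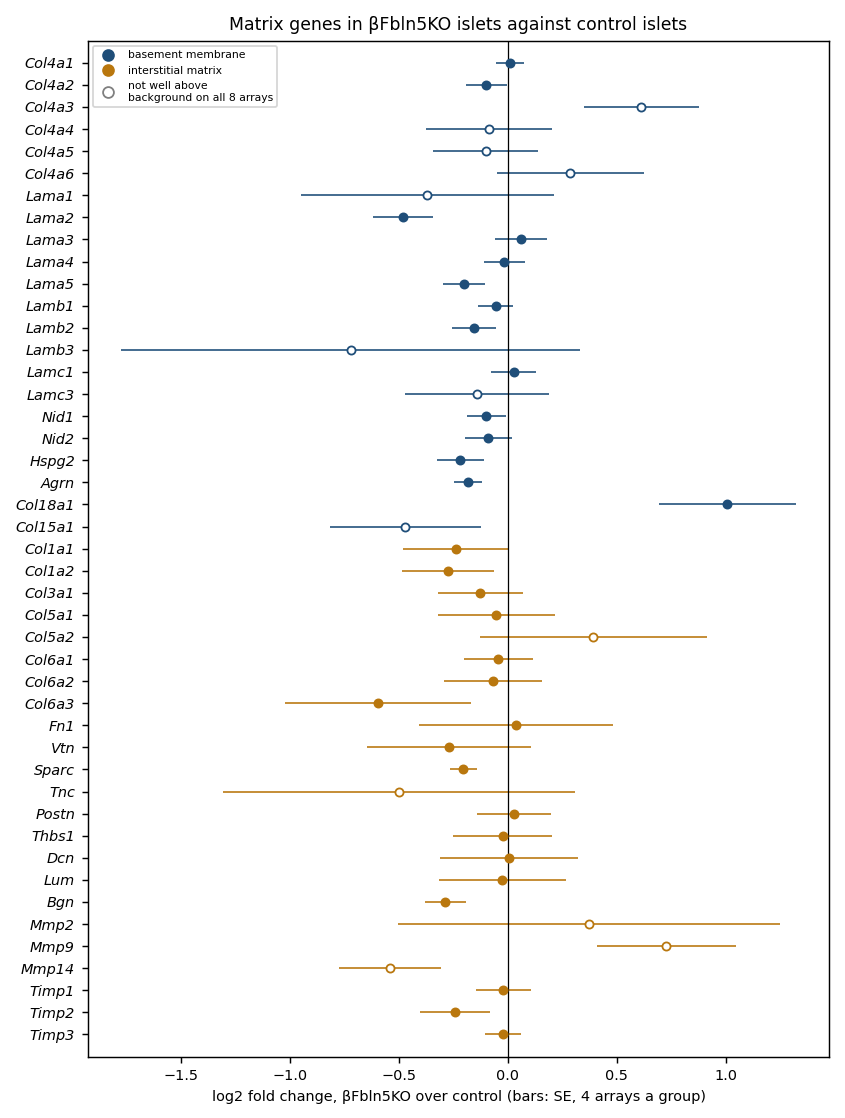
Difference in level of the 45 matrix genes between βFbln5KO and control islets (horizontal axis, log2 fold change; bars, SE from limma, 4 arrays a group), with basement membrane genes in blue, interstitial genes in orange and open points for genes not well above background on all 8 arrays. Col18a1 lies farthest to the right at 1.01, most filled points lie left of 0 within 0.3, and the open points carry the widest bars.

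The main chains of type IV collagen, the covalent network of every basement membrane, did not pass the test. Col4a1, which encodes the α1 chain, read 2.20, 2.40, 2.28 and 2.37 on control arrays 1 to 4 and 2.19, 2.40, 2.34 and 2.37 on βFbln5KO arrays 1 to 4. The 2 sets of values were almost the same, with a difference of 0.01 ± 0.06 (SE, n = 4 per group; 95% interval -0.13 to 0.16). Col4a2, which encodes the α2 chain that joins α1 in the same triple helix, read 0.63, 0.78, 0.67 and 0.62 in controls and 0.42, 0.75, 0.73 and 0.40 in βFbln5KO islets. Its replicates 1 and 4 were low in βFbln5KO islets and replicates 2 and 3 lay among the controls, for a difference of -0.10 ± 0.09 (95% interval -0.31 to 0.11). The 4 minor chains were near the limit of detection. Col4a5 was well above background on 4 control and 3 βFbln5KO arrays, with levels from -4.11 to -3.30, and its difference was -0.10 ± 0.24 (adjusted p = 0.87, limma). Col4a3, Col4a4 and Col4a6, the chains known from the kidney glomerulus and other specialised membranes, were well above background on no array. The call of Col4a3 therefore rests on signals at background, from -6.78 to -6.52 in controls and -6.68 to -5.38 in βFbln5KO islets.

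Laminins are trimers of an α, a β and a γ chain, and the endothelial laminins of islets combine α4 or α5 with β1 or β2 and γ1. Read by their brightest probes, 1 of the 10 laminin chains passed the unadjusted threshold, Lama2, which encodes the α2 chain known from muscle, Schwann cell and mesenchymal basement membranes. It read -1.75, -1.55, -2.04 and -1.76 in controls and -2.40, -2.39, -2.02 and -2.20 in βFbln5KO islets. Only βFbln5KO replicate 3 touched the control range, where it lay beside control replicate 3. The difference was -0.48 ± 0.14, a 1.39-fold lower level (limma p = 0.0072, adjusted p = 0.073; exact permutation p = 0.057, two-sided). The direction held in each of 19 other settings, and the call was lost (-0.20, adjusted p = 0.67, limma) only when Lama2 was read as the mean of its 2 probes, the second of which was well above background on no array. Lama5, encoding the α5 chain, read -0.26, -0.32, -0.13 and -0.12 in controls against -0.66, -0.29, -0.40 and -0.30, with replicate 1 lowest, and its difference of -0.20 ± 0.09 did not pass the unadjusted threshold (adjusted p = 0.24, limma). It passed that threshold without βFbln5KO replicate 2 (adjusted p = 0.21), without βFbln5KO replicate 4 (adjusted p = 0.19) and under normexp (adjusted p = 0.75).

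The other endothelial laminin chains did not pass the test when read by their brightest probes. Lama4 read -1.23, -1.20, -1.11 and -1.13 in controls and -1.43, -1.11, -1.08 and -1.10 in βFbln5KO islets, so that 3 of the 4 βFbln5KO arrays lay just above every control and replicate 1 stood alone below them. Its difference was -0.02 ± 0.09 (95% interval -0.23 to 0.20). Lamb1 (β1) read 0.84, 1.01, 1.01 and 1.103 in controls and 0.74, 1.01, 1.02 and 0.97 in βFbln5KO islets. Lamc1, the γ1 chain shared by nearly all of these trimers, read 1.20, 1.47, 1.49 and 1.58 in controls and 1.30, 1.62, 1.59 and 1.33 in βFbln5KO islets. The groups overlapped for both, although βFbln5KO replicate 1 lay below all controls for Lamb1 and replicates 2 and 3 lay above them for Lamc1, and the differences were -0.06 ± 0.08 and 0.03 ± 0.10. A second, dimmer probe did not read alike for either gene: for Lamc1 it differed by -0.62 ± 0.20 (adjusted p = 0.085, limma) and for Lamb1 by -0.26 ± 0.10 (adjusted p = 0.13), both past the unadjusted threshold. Both of these probes were well above background on all 8 arrays, so which probe is read decides whether the 2 chains appear level or lower. Lamb2 (β2), a component of vascular and neuromuscular basement membranes, read -1.46, -1.54, -1.68 and -1.79 in controls and -1.78, -1.70, -1.90 and -1.72 in βFbln5KO islets, a difference of -0.16 ± 0.10 (adjusted p = 0.41, limma). Lama3 differed by 0.06 ± 0.12. Across the 7 detected laminin chains βFbln5KO replicate 1 was the lowest array for 4, and its mean deviation from the 8-array means was -0.22, where the other arrays lay between -0.04 and 0.10. On that array mesenchymal markers (7 genes) were at their lowest, with a mean deviation of -0.14, and endothelial markers (11 genes) deviated by -0.07, or by -0.01 without Vwf, which was dropped after its values were seen. Endothelial markers were lowest on βFbln5KO replicate 2, at -0.13, or -0.08 without Vwf, where the laminins lay at -0.01. The part of either cell type in the laminin values was not tested.

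Lamb3, the β3 chain of epithelial laminin 332, was seen on 3 arrays only. It read -6.92, -6.93, -2.99 and -3.10 in controls and -6.06, -6.34, -6.36 and -4.07 in βFbln5KO islets, and was well above background on control replicates 3 and 4 and βFbln5KO replicate 4. These were also the 3 arrays with the highest acinar markers, whose mean deviations were 1.24, 0.92 and 0.51 there and between -1.09 and -0.08 on the other 5. The mean of the 4 detected ductal markers was likewise highest on these 3 arrays. It deviated by 0.14, 0.14 and 0.22 on control replicates 3 and 4 and βFbln5KO replicate 4. On the other 5 it lay between -0.27 and 0.08. The summed level of the 11 acinar markers, as multiples of the array's 75th percentile, ran from 1246 to 3280 on control arrays and from 822 to 2035 on βFbln5KO arrays. The part of acinar or ductal tissue in the Lamb3 values was not tested. The remaining chains, Lama1 (1 control array) and Lamc3 (3 control arrays), were well above background too rarely for a comparison, although Lama1 passed the unadjusted threshold under normexp (-0.31, adjusted p = 0.75, limma).

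Nidogens bridge the laminin and collagen networks, and neither passed the test. Nid1 read 0.48, 0.77, 0.66 and 0.65 in controls and 0.33, 0.56, 0.70 and 0.57 in βFbln5KO islets, a difference of -0.10 ± 0.09 (95% interval -0.30 to 0.11). Nid2 read -1.39, -1.60, -1.36 and -1.14 in controls and -1.52, -1.39, -1.37 and -1.58 in βFbln5KO islets, a difference of -0.09 ± 0.11 (95% interval -0.34 to 0.16).

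The proteoglycans and the endostatin-type collagens held the one detected gene that was higher and one that was lower. Col18a1 encodes type XVIII collagen, a heparan sulfate proteoglycan of vascular and epithelial basement membranes whose C-terminal fragment is endostatin. It read -1.53, -1.26, -1.55 and -1.63 on control arrays 1 to 4 and -1.01, -0.999, 0.54 and -0.47 on βFbln5KO arrays 1 to 4. Every βFbln5KO array lay above every control array, but the SD was 0.73 in βFbln5KO islets and 0.16 in controls, with replicate 3 far above the others. The difference was 1.01 ± 0.31, a 2.01-fold higher level (limma p = 0.011, adjusted p = 0.078; exact permutation p = 0.029, two-sided, the smallest that 4 against 4 arrays can give). The call held in all 18 other settings that gave the gene a value, with differences from 0.67, without βFbln5KO replicate 3, to 1.18. Col18a1 has only 1 probe, in spot row 6 of 384, and no value remains when the 16 outermost spot rows at either edge are left out. Of the 45 genes, 6 have their brightest probe in those rows.

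Agrn, encoding agrin, a heparan sulfate proteoglycan best known for organising the neuromuscular junction and found in many basement membranes, read 1.30, 1.44, 1.43 and 1.50 in controls and 1.24, 1.19, 1.14 and 1.37 in βFbln5KO islets. Replicate 4 was the only βFbln5KO array inside the control range. The difference was -0.18 ± 0.06, a 1.14-fold lower level (limma p = 0.019, adjusted p = 0.10; exact permutation p = 0.057, two-sided). Its call was lost without control replicate 4 (adjusted p = 0.22, limma), without βFbln5KO replicate 3 (adjusted p = 0.23) and without the mean-variance trend (adjusted p = 0.23). With the mean of its 2 probes the sign turned, to 1.08 (adjusted p = 0.48, limma), since the second probe, in spot row 9, was well above background on βFbln5KO replicate 2 alone. Hspg2, encoding perlecan, read 0.65, 0.68, 0.64 and 0.49 in controls and 0.33, 0.72, 0.35 and 0.20 in βFbln5KO islets. Here 3 βFbln5KO arrays lay below all controls and replicate 2 above them, for a difference of -0.22 ± 0.11 (adjusted p = 0.26, limma), which passed the unadjusted threshold without βFbln5KO replicate 2 (-0.33, adjusted p = 0.17) and with the replicate number as a block (-0.22, adjusted p = 0.22). Col15a1, the second endostatin-type collagen, was well above background on 1 control array only, and its difference of -0.47 passed the unadjusted threshold without control replicate 4 (-0.79, adjusted p = 0.11, limma).

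**Figure D2:**
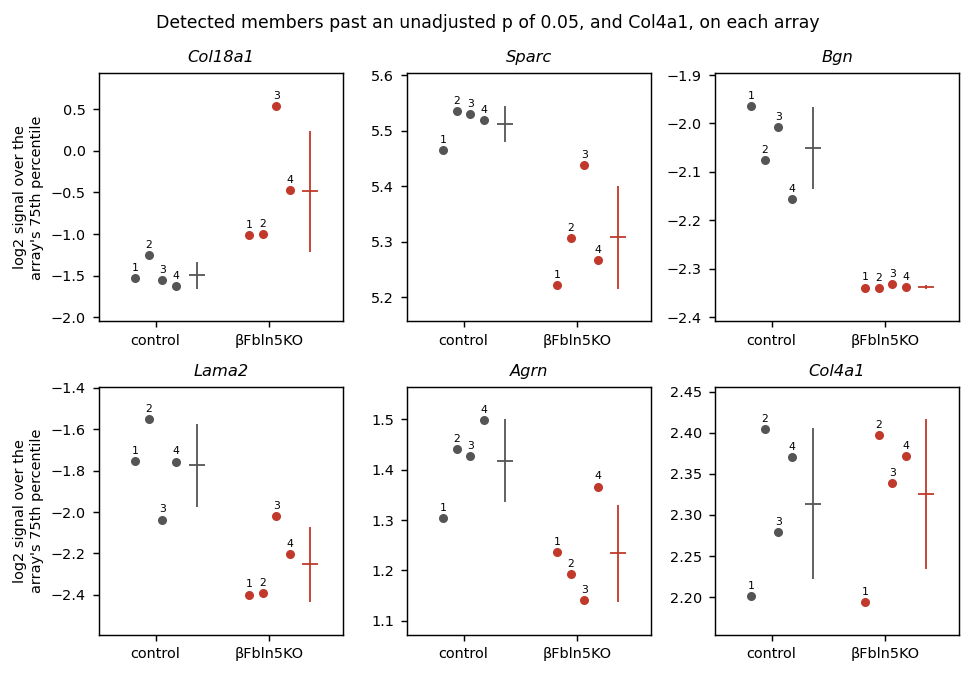
Level on each array (vertical axis, log2 signal over the array's 75th percentile; points numbered by replicate, bars for mean ± SD) of the 5 detected genes past an unadjusted p of 0.05 and of Col4a1. Col18a1, Sparc and Bgn show no overlap between control and βFbln5KO arrays, Lama2 and Agrn overlap by 1 βFbln5KO array, and for Col4a1 3 of the 4 βFbln5KO arrays lie within the control range; each panel has its own vertical scale, which does not start at 0.

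Fibrillar collagens form the tensile fibres of the interstitial matrix, and type VI collagen makes beaded filaments close to cells. None of the 8 genes passed the test, and the 7 that were well above background on every array spread widely among the control arrays. Col1a2, which encodes the α2 chain of type I collagen, read 2.09, 2.53, 1.32 and 1.99 in controls and 1.68, 1.67, 1.70 and 1.78 in βFbln5KO islets. The controls had an SD of 0.50 and the βFbln5KO arrays an SD of 0.05, with control replicate 2 highest and control replicate 3 lowest of all 8. Col1a1, the α1 chain, read -0.18, 0.69, -0.64 and 0.08 in controls and -0.32, -0.10, -0.42 and -0.16 in βFbln5KO islets. Col3a1, the type III collagen of vessels and reticular fibres, read 1.19, 1.84, 0.75 and 1.33 in controls and 1.30, 1.08, 1.02 and 1.21 in βFbln5KO islets. All 3 had the same highest and lowest array, and their differences, -0.27 ± 0.21 for Col1a2, -0.24 ± 0.24 for Col1a1 and -0.13 ± 0.20 for Col3a1, were no larger than this spread (adjusted p from 0.51 to 0.78, limma). Without control replicate 3, Col1a2 (-0.50, adjusted p = 0.16, limma) and Col1a1 (-0.45, adjusted p = 0.21) passed the unadjusted threshold, and without control replicate 2 their differences were -0.09 and -0.0048. Col6a3 read 1.40, 0.85, 0.40 and -0.86 in controls and -0.02, -0.38, 0.29 and -0.49 in βFbln5KO islets, a difference of -0.60 ± 0.43 that passed the unadjusted threshold only without control replicate 4 (-1.03, adjusted p = 0.11, limma) and was -0.28 without control replicate 1. Col5a1, Col6a1 and Col6a2 differed by -0.05 ± 0.27, -0.04 ± 0.16 and -0.07 ± 0.22, and Col5a2 was well above background on 1 βFbln5KO array only.

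Control replicate 2 was the highest of the 8 arrays for 6 of the 7 detected collagens of this group, and control replicate 3 the lowest for 6 of 7. For all 7 the SD was larger among controls than among βFbln5KO arrays. Over the 18 detected interstitial genes this was so for 13, with a median SD of 0.40 in controls and 0.23 in βFbln5KO islets. Over the 14 detected basement membrane genes it was so for 5, with medians of 0.12 and 0.16, close to the 0.13 and 0.12 of all genes well above background on every array. The mean deviation of the 7 collagens was 0.14, 0.66, -0.33 and -0.07 on control arrays 1 to 4 and -0.03, -0.17, -0.15 and -0.04 on βFbln5KO arrays 1 to 4. The mean of the 7 detected mesenchymal markers deviated by between -0.14 and 0.08 on the 8 arrays, and the summed level of all 10 was 10.8 to 11.6 in controls and 10.1 to 11.5 in βFbln5KO islets, with Tcf21 well above background on no array. Single markers departed from this mean. Thy1, known from fibroblasts and other cells, read 0.58, 1.46, 0.20 and -0.23 in controls and 0.00, 0.62, 0.49 and 1.64 in βFbln5KO islets, high on the same 2 arrays as Dcn and Lum. Pdgfra, which marks fibroblasts, was likewise highest on control replicate 2 (-4.16) and next on βFbln5KO replicate 4 (-4.41), and was well above background on 1 array per group only. None of the other mesenchymal markers was highest on either of these arrays. Tagln went the other way, at 1.28, 1.06, 1.59 and 2.03 in controls and 1.24, 1.36, 1.18 and 0.94 in βFbln5KO islets. Myh11 and Cspg4 were highest on control replicate 4. The mean of the 4 detected Schwann cell markers deviated by 0.08, 0.28, -0.24 and -0.25 on control arrays and by -0.06, -0.22, -0.12 and 0.53 on βFbln5KO arrays. The part of either cell type in the collagen values was not tested.

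**Figure D3:**
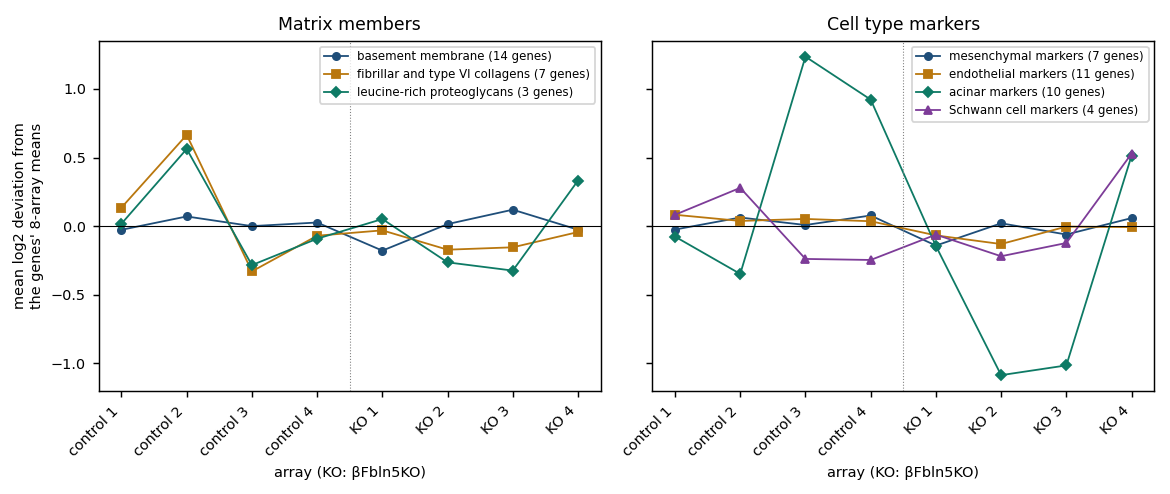
Mean deviation of gene groups from their 8-array means on each array (vertical axis, log2; genes well above background on all 8 arrays), matrix genes on the left and cell type markers on the right, with a dotted line between genotypes. Fibrillar and type VI collagens and the small leucine-rich proteoglycans peak on control 2 at 0.66 and 0.56, basement membrane genes stay within 0.18 of 0, and acinar markers range from -1.09 to 1.24.

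Chains that assemble with each other can be followed array by array. For 7 pairs of genes, chosen after their values were seen, the correlations below describe the same 8 libraries and carry no p. Col1a1 and Col1a2 had a Pearson r of 0.92 and a Spearman rho of 0.64, and for Col1a2 and Col3a1 r was 0.92 and rho 0.71. Without control replicates 2 and 3, the 2 arrays farthest from the median, r was 0.51 and 0.43, so both values rest largely on these arrays. Among the βFbln5KO arrays alone r was 0.10 and 0.18. Col6a1 and Col6a2 had an r of 0.85 and a rho of 0.60, and r was 0.27 without the same 2 arrays but 0.80 among the βFbln5KO arrays. Lamb1 and Lamc1 had an r of 0.81 and a rho of 0.69, and r was 0.62 without control replicate 1 and βFbln5KO replicate 1. Without the same 2 arrays, the r of Col4a1 and Col4a2, which share a triple helix, went from 0.43 (rho 0.50) to 0.09, and that of Col4a1 and Col1a2, a pair across the 2 layers, went from 0.27 (rho 0.29) to 0.75.

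The DNA before the RefSeq starts of Col1a2 and Col3a1 is shown because the 2 collagens had the same highest and lowest arrays. Each line gives the 250 bases upstream of the start in mouse build GRCm38.p6, 5′ to 3′ on the gene's strand. Capitals mark matches on either strand to the TATA box (spelled TATAAA, found in 12.4% of 32851 such windows of all genes), to the CCAAT box (33.8% of windows) and to the GC box (spelled GGGCGG, 32.7% of windows).
Col1a2, chr6:4505368-4505617, plus strand: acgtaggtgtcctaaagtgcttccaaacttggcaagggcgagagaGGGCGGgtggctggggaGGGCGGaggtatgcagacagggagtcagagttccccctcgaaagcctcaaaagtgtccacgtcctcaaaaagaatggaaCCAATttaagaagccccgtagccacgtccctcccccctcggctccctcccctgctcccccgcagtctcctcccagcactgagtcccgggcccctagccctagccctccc
Col3a1, chr1:45311288-45311537, plus strand: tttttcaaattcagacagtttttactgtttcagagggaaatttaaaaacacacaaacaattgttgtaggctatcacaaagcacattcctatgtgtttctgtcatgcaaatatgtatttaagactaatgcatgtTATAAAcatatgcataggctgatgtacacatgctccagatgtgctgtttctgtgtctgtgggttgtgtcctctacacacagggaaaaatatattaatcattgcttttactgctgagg
The Col1a2 window holds the GC box starting 205 and 188 bases before the start and the CCAAT box at 109 bases. The Col3a1 window holds only a TATA match, at 117 bases, so none of the 3 motifs was common to both. Of the 45 genes 30 had a window, and the TATA match was found for 4, the CCAAT box for 10 and the GC box for 18. A gene was counted if any of its windows held the match. The shares of all genes above are per window, so the 2 cannot be set against each other.

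Fn1 and Vtn encode fibronectin and vitronectin, adhesive glycoproteins that bind integrins. Fn1 read -2.99, -2.52, -2.65 and -2.22 in controls and -2.88, -2.84, -3.40 and -1.12 in βFbln5KO islets. βFbln5KO replicate 4 was the highest of all arrays and replicate 3 the lowest, and the difference was 0.04 ± 0.44. Vtn read 0.28, 0.59, 1.68 and 1.23 in controls and 0.92, -0.02, 0.36 and 1.45 in βFbln5KO islets, a difference of -0.27 ± 0.37 (adjusted p = 0.75, limma). Its 3 highest arrays were control replicates 3 and 4 and βFbln5KO replicate 4, those with the highest acinar and ductal markers. The part of either tissue in the Vtn values was not tested.

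**Figure D4:**
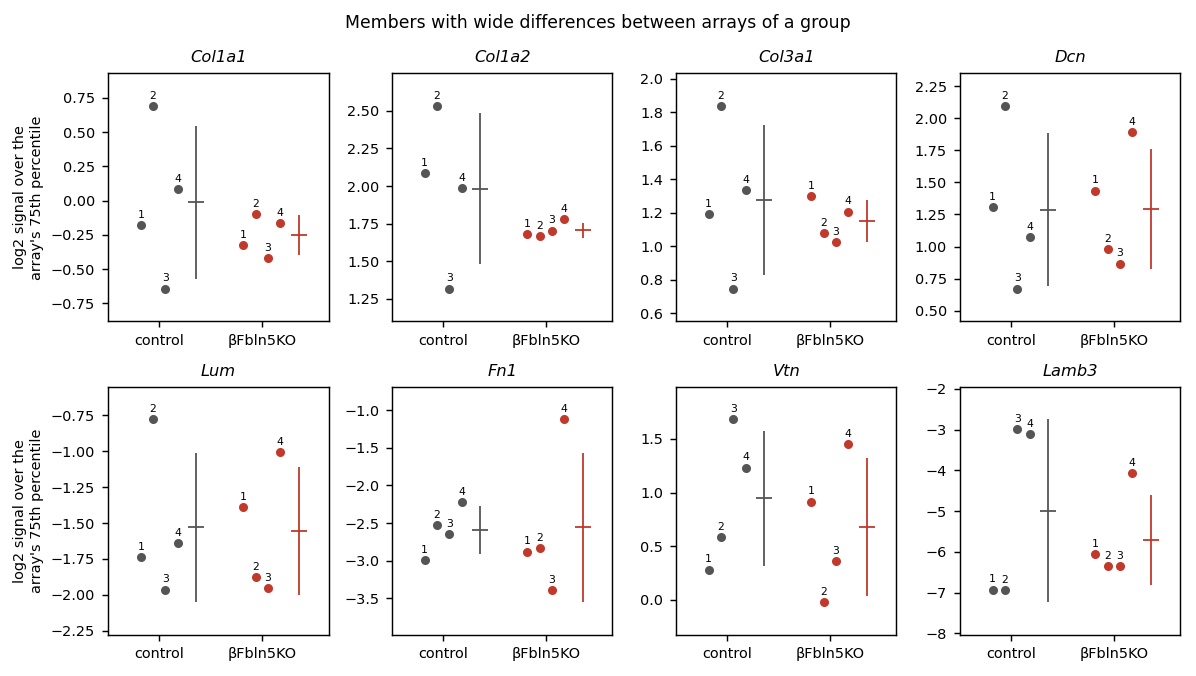
Level on each array (vertical axis, log2 signal over the array's 75th percentile; points numbered by replicate, bars for mean ± SD) of 8 genes with wide differences between arrays of a group. Control 2 is highest and control 3 lowest for the 3 fibrillar collagens, βFbln5KO 4 stands apart for Fn1, and Lamb3 is high on control 3, control 4 and βFbln5KO 4; vertical scales differ between panels and do not start at 0.

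Matricellular proteins, the class to which Fibulin-5 is assigned, modulate the contact of cells with the matrix. Sparc, a collagen-binding member made by stromal and endothelial cells, was slightly lower in βFbln5KO islets. It read 5.47, 5.54, 5.53 and 5.52 in controls and 5.22, 5.31, 5.44 and 5.27 in βFbln5KO islets. All βFbln5KO arrays lay below all controls, whose SD was 0.03. The difference was -0.20 ± 0.06, a 1.15-fold lower level (limma p = 0.011, adjusted p = 0.078; exact permutation p = 0.029, two-sided). A second Sparc probe gave -0.23 ± 0.11 (adjusted p = 0.24, limma), which missed the unadjusted threshold, and the call was lost under quantile normalization (-0.14, adjusted p = 0.73). The summed level of the 12 endothelial markers ran from 46.6 to 52.1 on control arrays and from 44.98 to 50.82 on βFbln5KO arrays. The mean log2 deviation of the 11 detected ones, in which each marker counts equally, was 0.08, 0.04, 0.05 and 0.04 in controls and -0.07, -0.13, -0.0034 and -0.0072 in βFbln5KO islets, every βFbln5KO array below every control. This order rested on Vwf, encoding von Willebrand factor, the 1 marker of the 12 that was called (-0.87 ± 0.29, adjusted p = 0.089, limma). Without Vwf the mean of the other 10 was 0.03, -0.07, 0.03 and 0.07 in controls and -0.01, -0.08, 0.05 and -0.01 in βFbln5KO islets, and the groups overlapped. Vwf was dropped after its call was seen, and dropping the most changed marker narrows the gap by construction. The part of vessels or mesenchyme in the Sparc values was not tested. Postn, encoding periostin, read -1.76, -1.08, -1.75 and -1.43 in controls and -1.40, -1.63, -1.65 and -1.24 in βFbln5KO islets. Thbs1, encoding thrombospondin-1, an activator of latent TGF-β, read -0.01, -0.51, 0.34 and 0.37 in controls and -0.33, -0.11, 0.50 and 0.04 in βFbln5KO islets. The groups overlapped for both, with βFbln5KO replicate 3 above all controls for Thbs1, and the differences were 0.03 ± 0.17 and -0.02 ± 0.23. Tnc, encoding tenascin-C, was well above background on control replicate 3 only, at -3.20, and without that array its difference turned from -0.50 to 0.45 (adjusted p = 0.16, limma), past the unadjusted threshold on signals at background.

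The small leucine-rich proteoglycans bind collagen and regulate the assembly of its fibrils. Bgn, encoding biglycan, read -1.96, -2.08, -2.01 and -2.16 in controls and -2.34, -2.34, -2.33 and -2.34 in βFbln5KO islets. The βFbln5KO arrays were nearly identical and all lay below the controls. The difference was -0.29 ± 0.09, a 1.22-fold lower level (limma p = 0.014, adjusted p = 0.086; exact permutation p = 0.029, two-sided). The call held in all 19 other settings, with differences from -0.32 to -0.24 and an adjusted p between 0.0498 and 1. Dcn, encoding decorin, read 1.31, 2.09, 0.67 and 1.08 in controls and 1.44, 0.98, 0.87 and 1.89 in βFbln5KO islets, and Lum, encoding lumican, read -1.74, -0.78, -1.96 and -1.64 in controls and -1.39, -1.88, -1.95 and -1.004 in βFbln5KO islets. Neither passed the test, with differences of 0.01 ± 0.32 for Dcn (95% interval -0.71 to 0.73) and -0.03 ± 0.29 for Lum (95% interval -0.69 to 0.64). Both were highest on control replicate 2 and βFbln5KO replicate 4, and across the 8 arrays they had an r of 0.97 and a rho of 0.98. Without these 2 arrays r was 0.87, and after subtracting each group's mean it was 0.97. This pair was 1 of the 7 above. Dcn and Lum are neighbours in the RefSeq annotation of GRCm38.p6.

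The windows before the starts of Sparc and Bgn, the 2 interstitial genes that were lower on every βFbln5KO array, are written as above, with the same motifs in capitals.
Sparc, chr11:55420081-55420330, minus strand: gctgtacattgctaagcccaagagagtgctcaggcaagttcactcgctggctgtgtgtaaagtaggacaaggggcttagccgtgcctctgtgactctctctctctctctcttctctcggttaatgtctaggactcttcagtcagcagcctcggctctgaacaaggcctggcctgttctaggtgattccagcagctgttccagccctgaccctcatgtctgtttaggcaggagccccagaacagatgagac
Bgn, chrX:73483351-73483600, plus strand: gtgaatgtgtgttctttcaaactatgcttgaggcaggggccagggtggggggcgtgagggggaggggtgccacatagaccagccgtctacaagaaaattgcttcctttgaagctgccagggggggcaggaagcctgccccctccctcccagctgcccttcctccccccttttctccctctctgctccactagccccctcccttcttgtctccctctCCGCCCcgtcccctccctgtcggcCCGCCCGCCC
None of the 3 motifs was in the Sparc window. The Bgn window held the GC box, read on the other strand, starting 34, 10 and 6 bases before the start, the last 2 of which overlap.

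The 3 proteases among the 45 genes were at the limit of detection, and the 3 inhibitors were well above background on every array. Mmp2, gelatinase A, was well above background on βFbln5KO replicate 4 only, at -2.77, where the other 7 arrays lay between -7.15 and -4.67. Mmp9 and Mmp14 were well above background on no array, and their calls rest on signals from -7.13 to -5.23 and from -6.26 to -5.24. Timp1 read -0.94, -0.67, -0.79 and -0.97 in controls and -0.95, -0.66, -1.15 and -0.69 in βFbln5KO islets. Timp2 read 2.70, 3.18, 3.05 and 2.69 in controls and 2.34, 2.68, 2.59 and 3.03 in βFbln5KO islets. Timp3, which stays bound to the matrix, read 2.37, 2.14, 2.38 and 2.44 in controls and 2.42, 2.13, 2.33 and 2.35 in βFbln5KO islets. The groups overlapped for all 3, for Timp2 by βFbln5KO replicate 4 alone, with differences of -0.02 ± 0.12, -0.24 ± 0.16 and -0.02 ± 0.08. Timp2 passed the unadjusted threshold only without βFbln5KO replicate 4 (-0.37, adjusted p = 0.16, limma).

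A further 78 matrix genes, listed by function as enzymes that modify, trim and crosslink collagen, other basement membrane and interstitial components, and other proteases and inhibitors, were all measured, 47 of them well above background on all 8 arrays. At an unadjusted limma p of 0.05, 9 were higher and 2 lower, beside 16.8% and 2.68% of all named genes, 67 were not called, none passed an adjusted p of 0.05, and the median difference was 0.01. Of the 9 called higher, 7 were well above background on no array. The other 2 act on collagen before it is laid down. Bmp1, the procollagen C-proteinase, read 3.57, 3.56, 3.62 and 3.63 in controls and 3.82, 3.71, 3.71 and 3.68 in βFbln5KO islets, every βFbln5KO array above every control, a difference of 0.13 ± 0.05 (limma p = 0.020, adjusted p = 0.11; exact permutation p = 0.029, two-sided). P4ha2, a subunit of prolyl 4-hydroxylase, read 1.60, 1.42, 1.52 and 1.48 in controls and 1.79, 1.62, 1.57 and 1.62 in βFbln5KO islets, a difference of 0.15 ± 0.06 (adjusted p = 0.19, limma), with 3 of 4 βFbln5KO arrays above all controls. Neither call was firm. That of Bmp1 was lost in 5 of 19 other settings, among them normexp, no mean-variance trend and leaving out control replicate 2 or βFbln5KO replicate 1. That of P4ha2 was lost in 10, among them quantile normalization, no trend and leaving out control replicate 2, 3 or 4 or βFbln5KO replicate 1, 2 or 4. The 2 called lower, Adamts14 (-0.60) and Frem2 (-1.03), were named after their values were seen and were well above background on 1 and 2 control arrays only.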

How the data were processed

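Total islet RNA was labelled with Cy3 and hybridised to SurePrint G3 Mouse GE arrays, 4 control and 4 βFbln5KO. For each array the authors deposited the intensity of every spot, background-subtracted and spatially detrended with the default settings of Agilent Feature Extraction 11.0.1.1, with flags for outliers and for spots well above background, and not normalized between arrays. The authors also deposited a table of ratios for 35553 probes, each the processed signal over about the array's 75th percentile. It was used as an alternative and gives a value for 38 of the 45 genes.

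The 59305 processed intensities per array that were not of controls were divided by the array's 75th percentile (signals of 709 to 1055) and log2-transformed. Values marked as outliers (0.356%) were left out, and spots of a probe were averaged. No spot was saturated. Probes were named through RefSeq accessions, which named 58.3% of 56605 probes. Differences were tested with limma 3.58.1 in R 4.3.3 (lmFit, eBayes with a mean-variance trend, two-sided), p-values adjusted by Benjamini-Hochberg across every probe, and single genes also with an exact permutation test. The fit was tested on simulated data. Figures were drawn with matplotlib in Python. Other settings tried were normexp on median signals (offset 50), quantile normalization, 2 treatments of dim probes (at least 4 arrays well above background, or a common floor), outliers kept, no trend, all probes of a gene averaged, the methods' t-test, the deposited table, the outermost 16 spot rows left out, a replicate block, and each array left out. Whether the replicate numbers of the labels pair the arrays is not known, and the main fit did not pair them.

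Values are given per array for genes past an unadjusted p of 0.05 and detected at least once, for the 3 with the smallest p in each functional group among those well above background on at least 4 arrays, and for the main chains. The genes, lists and markers were chosen with earlier results of these data known, so no list was tested and counts are given beside those of all genes. Nothing says that the 4 lots of a group came from separate animals, so p-values measure the spread between these lots, which may be partly technical. The number of arrays limits the precision.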

Additional observations from a re-analysis of the deposited data

Results flagged for a closer look

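In the 64 groups of 4 arrays checked (32 genes in each genotype), 1 array stood apart from the other 3 of its group by more than Dixon's limit: βFbln5KO replicate 1 for Lama4, at -1.43 where the other 3 lay between -1.11 and -1.08. The gap was 0.935 of the group's range. Chance alone takes about 5% of groups past that limit.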

How the results depend on the processing

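The 8 genes called without adjustment were recomputed under 19 other settings. Genes called higher numbered 3 as reported and 1 under normexp, with a filter that asked for signal well above background on 4 or more arrays, with a common floor, with the methods' t-test and in the deposited table. They numbered 1 to 3 when single arrays were left out, where 15.9% to 19.1% of all named genes were called higher. The share of all named genes called higher was 16.8% as reported, 0.742% under normexp, 0.869% with the filter and with the floor, 1.92% under quantile normalization and 1.4% in the deposited table, and 15.6% by the t-test. Genes called lower numbered 5 as reported, 3 under quantile normalization and 3 to 7 when single arrays were left out. Of all named genes 2.68% were called lower as reported, 2.84% under quantile normalization and 2.09% to 3.5% when single arrays were left out. Genes past an adjusted p of 0.05 numbered 0 as reported and by the methods' t-test, 1 (Bgn) without the mean-variance trend, where 2088 of 22911 named genes passed beside 3 as reported, and 0 to 2 when single arrays were left out, the 2 without βFbln5KO replicate 4, where 3755 named genes passed. The median difference ran from -0.1743 to -0.0495 when single arrays were left out. Of the 78 further matrix genes, those called higher numbered 9 as reported, 1 under normexp, under quantile normalization and with that filter, 2 with a common floor and 2 in the deposited table. Those called lower numbered 2 as reported, 1 with the filter, 0 with the floor and 1 to 3 when single arrays were left out, and those called higher then numbered 7 to 11. Of all named genes 3.56% were called lower with the filter and 2.1% with the floor. When single arrays were left out, 2.09% to 3.5% were called lower and 15.9% to 19.1% higher. The sign turned for Col4a3 (-0.0046) and Mmp9 (-0.0545) under normexp, both at background, and for Agrn (1.08) with all probes averaged. With the floor, genes at background on every array had no difference to give. The replicate block, in which the numbers of the labels act as pairs, gave 2 higher, 5 lower and a median of -0.09, and moved no count by over 1.5 times. Of all named genes it called 14.7% higher and 2.89% lower. Deviations of same-numbered arrays correlated at 0.20, 0.30, -0.23 and -0.02 over 26341 probes. Arrays numbered 1 and 2 correlated best with the array of their own number, and those numbered 3 and 4 did not. Whether the numbers mark pairs is therefore not settled, and the block says nothing about the strength of a difference. Signal over background limits 13 of the 45 genes, which were not well above it on all 8 arrays. The causes were not tested.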
